A study of Rattus norvegicus with 6 samples.

Results

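The globin and haem metabolism genes were followed in brain capillaries of stroke-prone spontaneously hypertensive rats (SHRSP) under drugs that block the renin-angiotensin system (RAS). They were all probe sets of the array whose only gene symbol was Alas1, Alas2, Hmox1, Hmox2 or Slc4a1, or began with Hba or Hbb. This rule, which used no measured value, took 13 of 8799 probe sets and 8 of 4737 named genes: Alas1, Alas2, Hba-a3, Hbb, Hbb-b1, Hmox1, Hmox2 and Slc4a1. Of the 13 probe sets, 11 passed a filter that left out the lowest 40% of probe sets by mean level, and 2 did not (Hba-a3 and 1 of the 3 for Slc4a1).

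RNA was measured on 6 arrays, 2 in each of 3 groups. SHRSP are an inbred rat strain that develops severe hypertension and strokes. The rats were 6 weeks old. One group was the control. The ACEI group received lisinopril, an angiotensin converting enzyme inhibitor, at 6 mg per kg body weight per day, and the ARB group received olmesartan, a blocker of the angiotensin II type 1 receptor, by mouth at 4 mg per kg per day. Salt (1% NaCl) is also named in the labels, and whether it went to all groups or to the controls alone was not given in the sources used here, and neither was the length of treatment, the number of rats behind an array and any rinsing of blood from the vessels. No normotensive strain was on these arrays. No label says that the 2 arrays of a group came from separate animals, so the p-values measure only the spread between these arrays, which may be technical.

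Haem, the iron-holding ring that lets haemoglobin carry oxygen, is built from glycine and succinyl-CoA by a chain of enzymes whose entry step is catalysed by ALA synthase. Alas1 encodes the form used by most cells and Alas2 the form of developing red cells, where haem is joined to alpha and beta globin chains. Slc4a1 encodes band 3, the anion exchanger of the red cell membrane, while the haem oxygenases, inducible Hmox1 and constitutive Hmox2, cut haem into biliverdin, carbon monoxide and iron. In brain vessels the red cell genes are best known from blood that stays in the lumen, and Hmox1 from the response to oxidative stress and haemorrhage.

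The values are intensities on a linear scale, 1 per probe set and array, and the deposited values have nearly the same trimmed mean on every array. Differences are log2 differences of intensity plus an offset of 90, given ± SE of the limma fit with 2 arrays per group, so a difference of -1 is about 2-fold lower and low levels are compressed. Array quality was uneven. The 3′ to 5′ signal ratio of Gapdh, which grows as RNA is degraded, was 7.31 on control 2 and 0.93 to 1.59 on the other arrays. The median signal of 23 probe sets for foreign sequences, a guide to background, was 105.6 and 86.6 on the ARB arrays and 18.4 to 28.6 on the rest. The control arrays correlated at 0.747 with each other, against 0.906 for the ACEI and 0.88 for the ARB arrays. The runs fell on 2 days with a chip lot each: control 1 and ACEI 1 on the first, the other 4 arrays on the second.

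Alas2 was lower in both treated groups and was the member with the largest RAS blockade difference. Its intensity was 10011 and 9087 on control 1 and 2, 2940 and 4310 on ACEI 1 and 2, and 2247 and 680 on ARB 1 and 2. The control arrays lay close together, all 4 treated arrays lay below them, and both ARB arrays lay below both ACEI arrays. RAS blockade, the mean of the ACEI and ARB groups, differed from control by -2.12 ± 0.52 (4.35-fold lower), with an unadjusted p of 0.00305 and a limma adjusted p of 0.863. The ACEI difference was -1.40 ± 0.60 (adjusted p = 0.992) and the ARB difference -2.84 ± 0.60 (7.18-fold lower, adjusted p = 0.199). ARB was lower than ACEI by 2.72-fold (-1.44 ± 0.60, adjusted p = 0.204). None of these passed the threshold of 0.05 after Benjamini-Hochberg adjustment over the 5244 probe sets tested. In these bulk samples, fewer cells of a type and less RNA per cell cannot be told apart.

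The Alas2 differences kept their direction within a run day. On the first day ACEI 1 stood at -1.74 against control 1. On the later day ACEI 2 stood at -1.06 against control 2, and the ARB arrays at -2.77. Control 2, the only control of that day, was the array with the Gapdh ratio of 7.31. ARB 1 also had another fluidics setting than the other arrays of that day. Leaving out each array in turn gave RAS blockade differences from -2.52 to -1.72, so no 1 array set the direction. The size of the ARB difference moved more, from -3.65 to -2.04, with the gap between 2247 and 680 on its own arrays.

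**Figure D1:**
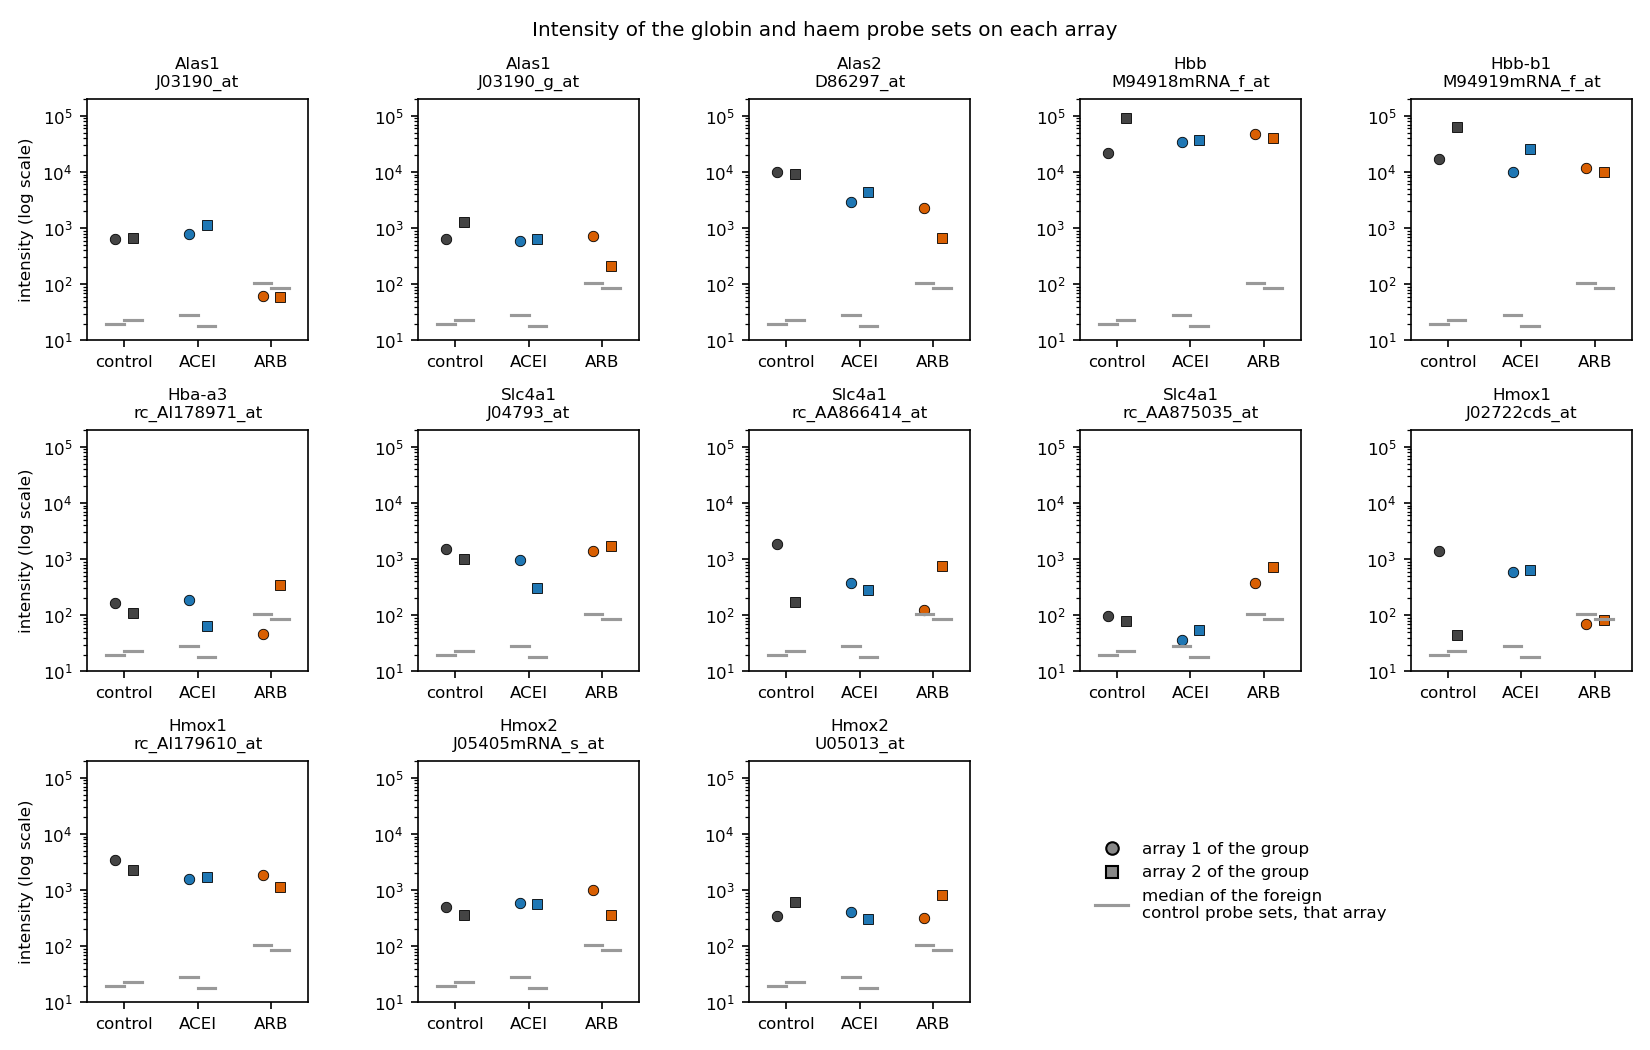
Intensity of each globin and haem metabolism probe set on the 6 arrays (log axis, circle for array 1 and square for array 2 of a group, grey lines for each array's median foreign-sequence signal). Alas2 lies between 680 and 4310 on the treated arrays and at 9087 and 10011 on the control arrays, while the Hbb readings of all treated arrays lie between those of the control arrays.

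Alas1, the form of ALA synthase used outside red cells, had 2 probe sets made from 1 transcript record, and they gave different patterns. J03190_at read 634 and 678 on the control arrays, 786 and 1148 under ACEI, and 61.9 and 59.8 under ARB. Both ACEI arrays thus lay above the controls and both ARB arrays far below them. ARB differed from control by -2.31 ± 0.45 (4.94-fold lower, limma adjusted p = 0.199) and from ACEI by -2.79 ± 0.45 (6.9-fold lower, unadjusted p = 0.000207, adjusted p = 0.121). The ACEI difference was 0.48 ± 0.45 (adjusted p = 0.992). Both ARB readings were under the median foreign-sequence signal of their own arrays, so the ARB level is a low reading whose fold depends on the offset: with no offset the ARB difference was -3.43, and with an offset at the median intensity it was -1.27.

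The second Alas1 probe set, J03190_g_at, read 638 and 1267 on the control arrays, 588 and 643 under ACEI, and 719 and 209 under ARB. The groups overlapped in the ARB comparison, because ARB 1 lay between the controls. Its differences were -0.50 ± 0.60 for ACEI and -1.01 ± 0.60 for ARB (limma adjusted p = 0.396). The ratio of J03190_at to J03190_g_at on the same array was 0.994 and 0.535 on the controls, 1.34 and 1.79 under ACEI, and 0.086 and 0.286 under ARB. The ratio was lowest on the ARB arrays, so the pair of probe sets did not run in parallel, and which of them follows the Alas1 transcript was not tested.

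**Figure D2:**
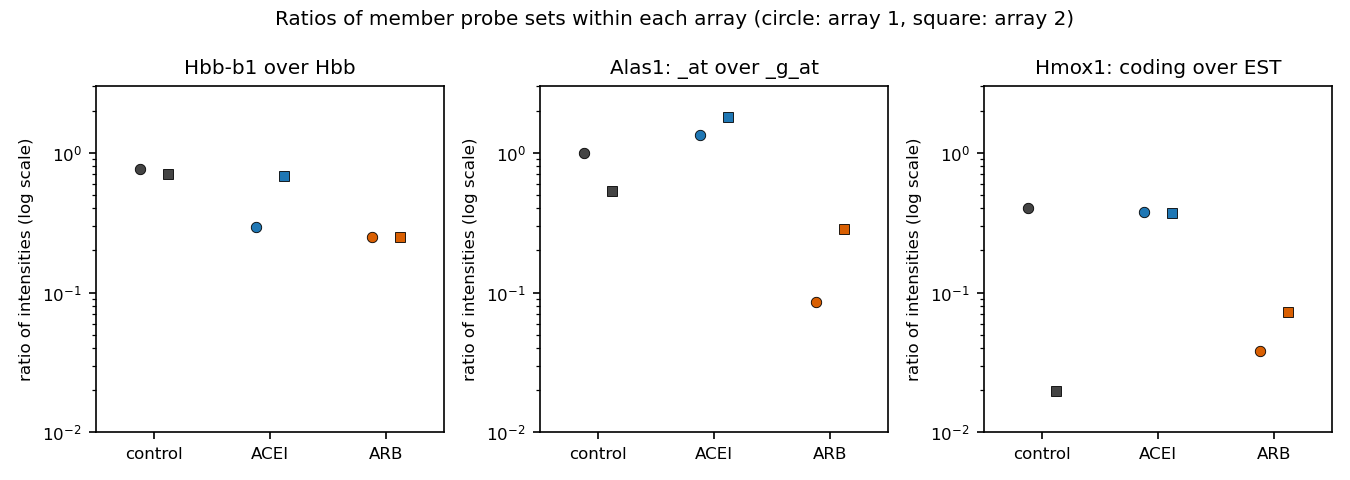
Ratio of the intensities of a pair of probe sets on the same array, on a log axis, for Hbb-b1 over Hbb, for the pair of Alas1 probe sets and for the pair of Hmox1 probe sets. The Alas1 ratio is 0.086 and 0.286 on the ARB arrays and at least 0.535 on the others. The Hmox1 ratio is lower on control 2 (0.0199) than on either ARB array (0.0383 and 0.0722).

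Beta globin genes lie side by side on rat chromosome 1 and alpha globin genes on chromosome 10. Their promoters are shown because the members encode the chains that Alas2 serves with haem, and because Hbb and Hbb-b1 are close relatives. The stretches are from RefSeq on GRCr8, all on the minus strand, and capitals mark CACCC (bound by Krüppel-like factors such as Klf1), CCAAT and GATA (the core of GATA factor sites), searched on both strands. Hbb is chr1:167663722-167663971, Hbb-b1 chr1:167643578-167643770 and Hba-a3 chr10:15816944-15817193. The first and last are the 250 bases before the start, and that of Hbb-b1 leaves out the 57 bases nearest the start, which a longer RefSeq model covers.
Hbb: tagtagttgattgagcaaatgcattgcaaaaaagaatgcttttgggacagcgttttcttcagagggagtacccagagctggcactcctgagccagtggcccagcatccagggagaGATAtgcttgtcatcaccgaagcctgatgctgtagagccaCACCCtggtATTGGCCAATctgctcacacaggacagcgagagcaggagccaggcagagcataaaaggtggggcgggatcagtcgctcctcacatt
Hbb-b1: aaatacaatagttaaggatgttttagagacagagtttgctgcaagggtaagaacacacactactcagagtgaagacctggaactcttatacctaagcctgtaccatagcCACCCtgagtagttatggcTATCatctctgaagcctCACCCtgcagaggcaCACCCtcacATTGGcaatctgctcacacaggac
Hba-a3: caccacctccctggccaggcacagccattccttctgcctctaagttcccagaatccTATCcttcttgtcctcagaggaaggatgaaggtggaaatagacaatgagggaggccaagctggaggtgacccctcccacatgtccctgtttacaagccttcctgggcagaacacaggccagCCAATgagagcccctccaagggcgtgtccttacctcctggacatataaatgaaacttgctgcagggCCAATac
CACCC was found 1 time for Hbb, 3 times for Hbb-b1 and 0 times for Hba-a3. CCAAT was found 2 times for Hbb, 1 time for Hbb-b1 and 2 times for Hba-a3, and GATA 1 time in each. Such short words are common: of 33469 promoter windows of 250 bases, 49.2% held CACCC, 34% CCAAT and 55.9% GATA, and of 193-base stretches 40.5%, 27.9% and 48.8%. In Hbb the 2 CCAAT matches lie on opposite strands of ATTGGCCAAT and share bases. The matches are a description of these letters only.

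The beta globin probe sets were not uniformly lower. Hbb (M94918mRNA_f_at) read 21900 and 90197 on control 1 and 2, 34508 and 37488 under ACEI, and 46802 and 40285 under ARB. All treated arrays lay between the control arrays, which were 2.04 apart on the log2 scale. RAS blockade differed by -0.17 ± 0.57 (limma adjusted p = 0.963), ACEI by -0.31 ± 0.66 and ARB by -0.03 ± 0.66. The first run day gave 0.65 for ACEI and the later day -1.26 for ACEI and -1.05 for ARB, so the sign differed between run days. Leaving out each array in turn moved the RAS blockade difference from -1.19 to 0.85, the extremes being without control 1 and without control 2. It was 0.06 with quantile normalization and 0.25 with cyclic loess.

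Hbb-b1 (M94919mRNA_f_at) read 16668 and 63286 on the control arrays, 10108 and 25638 under ACEI, and 11650 and 10080 under ARB. The ARB arrays lay below both controls, while ACEI 2 lay above control 1. RAS blockade differed by -1.29 ± 0.62 (limma adjusted p = 0.863), ACEI by -1.01 ± 0.72 and ARB by -1.58 ± 0.72 (2.98-fold lower, adjusted p = 0.296). Its controls were 1.92 apart, and leaving out control 2 made the RAS blockade difference -0.33. Within a run day it was lower in each comparison, by -0.72 and -1.30 for ACEI and -2.54 for ARB. The later-day values rest on control 2 alone.

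Hbb and Hbb-b1 transcripts are near-identical, and the suffix of both probe sets marks probes that can match several members of a gene family, so the split of signal between these genes is uncertain. The ratio of Hbb-b1 to Hbb on the same array was 0.761 and 0.702 on the controls, 0.293 and 0.684 under ACEI, and 0.249 and 0.25 under ARB. It was thus nearly equal on the control arrays, whose globin signals were far apart, and lower on both ARB arrays and ACEI 1. Across the 6 arrays the correlation of the Hbb and Hbb-b1 log2 values was 0.64, a description over arrays that share the control gap.

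Hba-a3 (rc_AI178971_at), an alpha globin gene, stayed under the filter on low levels. It read 168 and 108 on the control arrays, 185 and 63.3 under ACEI, and 46.3 and 352 under ARB, with no separation of the groups. A further 2 probe sets carry several symbols that are all globin genes, and lie outside the rule for that reason. X56325mRNA_s_at, whose symbols are alpha globin genes, read 1008 and 69047 on the control arrays, 25068 and 25652 under ACEI, and 64170 and 65557 under ARB. Its control arrays were 5.98 apart on the log2 scale. The beta globin probe set rc_AI179576_s_at read 23345 and 52855, then 26140 and 21356, then 77311 and 69276 in the same order. On that probe set both ARB arrays lay above both controls (1.06), whereas on Hbb-b1 both lay below them.

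Slc4a1, the band 3 gene, had 3 probe sets that disagreed. J04793_at read 1542 and 1024 on the control arrays, 946 and 307 under ACEI, and 1373 and 1718 under ARB. Both ACEI arrays lay below the controls and the ARB arrays did not. The ACEI difference was -1.07 ± 0.57 (limma adjusted p = 0.992), the ARB difference 0.27 ± 0.57, and ARB was above ACEI by 1.34 ± 0.57 (unadjusted p = 0.0444, adjusted p = 0.212). Without 1 array at a time that last difference ranged from 0.65 to 2.03, and with each array centred on its median the ARB difference from control was -0.35. Alas2 and Slc4a1 J04793_at therefore differed between the drugs in opposite directions, Alas2 lower and Slc4a1 higher under ARB than under ACEI.

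The probe set rc_AA866414_at for Slc4a1 read 1864 and 172 on the control arrays, 369 and 280 under ACEI, and 125 and 739 under ARB. The groups overlapped, and the RAS blockade difference was -0.78 ± 0.83 (limma adjusted p = 0.892). Within the first run day ACEI stood at -2.09, and on the later day ACEI stood at 0.50 and ARB at 0.69, so here too the sign differed between run days. The last Slc4a1 probe set, rc_AA875035_at, was below the filter at 96.4 and 78.6 on the controls, 36.0 and 55.1 under ACEI, and 377 and 736 under ARB. Its ARB readings lay above both controls and its ACEI readings below them. ARB 1 read below the highest foreign-sequence signal of its array (545.3) and ARB 2 above its own (522.9).

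**Figure D3:**
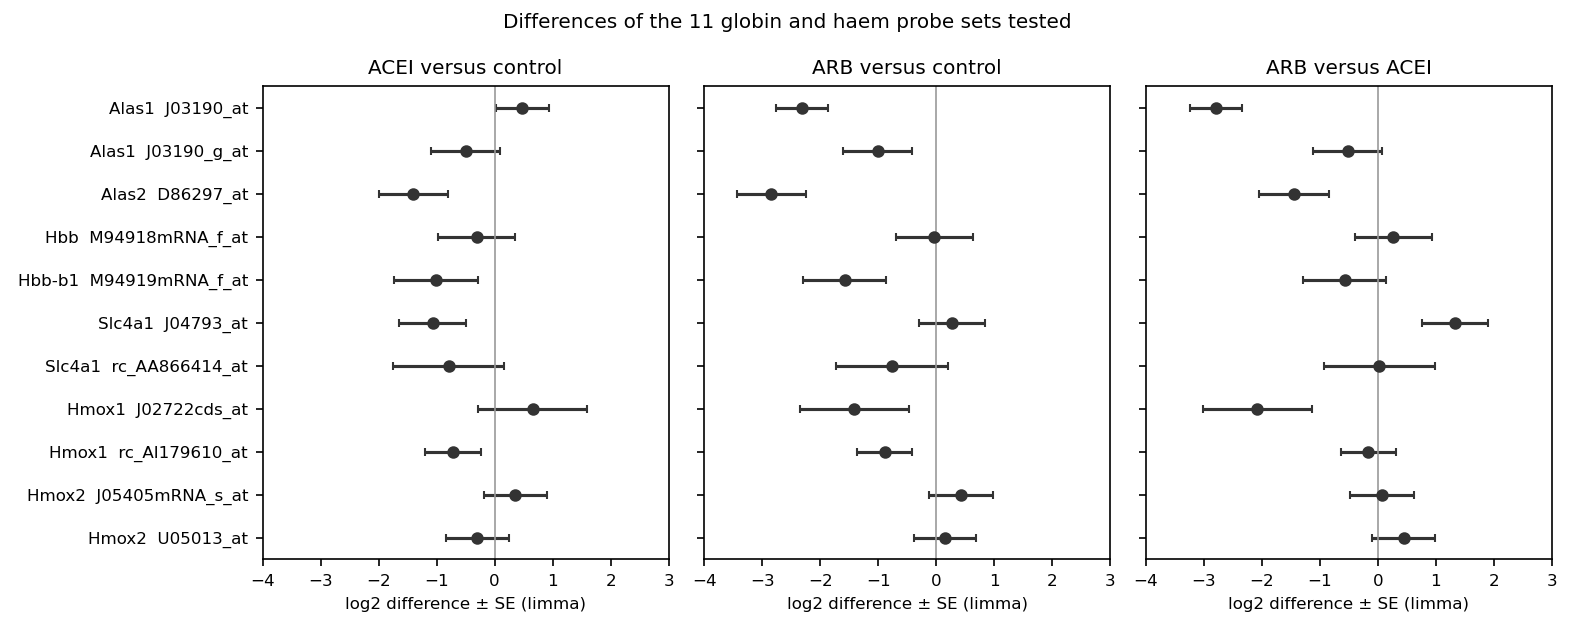
Log2 differences of the 11 globin and haem metabolism probe sets tested, with bars of 1 SE from limma, for ACEI and ARB against control and for ARB against ACEI. Alas2 lies furthest below 0 for ACEI (-1.40) and for ARB (-2.84), and Hbb lies at -0.31 and -0.03.

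Hmox1, the inducible haem oxygenase, was read by 2 probe sets. The brighter one, rc_AI179610_at, from an expressed sequence tag, read 3417 and 2236 on the control arrays, 1547 and 1737 under ACEI, and 1830 and 1152 under ARB. All 4 treated arrays lay below both controls. RAS blockade differed by -0.81 ± 0.42 (1.75-fold lower, unadjusted p = 0.0883, limma adjusted p = 0.863), ACEI by -0.72 ± 0.48 and ARB by -0.89 ± 0.48 (adjusted p = 0.366). The sign held within both run days, at -1.10 and -0.35 for ACEI and -0.59 for ARB, with control 2 as the only later-day control. The difference between ARB and ACEI was -0.16, well inside its own error.

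The coding-sequence probe set J02722cds_at for Hmox1 read 1372 and 44.5 on the control arrays, 579 and 648 under ACEI, and 70.0 and 83.2 under ARB. Its control arrays spanned the whole range of the treated arrays, and both ARB readings were under the median foreign-sequence signal. RAS blockade differed by -0.37 ± 0.82, ACEI by 0.66 ± 0.94 and ARB by -1.41 ± 0.94, none past an adjusted p of 0.05 in limma. ARB was below ACEI by 4.22-fold (-2.08 ± 0.94, adjusted p = 0.236). On the later run day the ACEI difference was 2.46 and the ARB difference 0.31, where the control is the low array. The ratio to rc_AI179610_at on the same array was 0.402 and 0.0199 on the controls, 0.374 and 0.373 under ACEI, and 0.0383 and 0.0722 under ARB. The Hmox1 pair therefore ran apart within the control group as well as between treatments.

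Hmox2, the constitutive haem oxygenase, showed no separation that both of its probe sets shared. J05405mRNA_s_at read 510 and 367 on the control arrays, 601 and 567 under ACEI, and 1024 and 359 under ARB. U05013_at read 350 and 603, then 411 and 312, then 325 and 811 in the same order. RAS blockade differed by 0.40 ± 0.47 on the first and by -0.08 ± 0.47 on the second, with limma adjusted p above 0.05 for both. Over the 6 arrays the log2 values of these probe sets correlated at -0.76, and on the ARB arrays ARB 1 was the higher on one and ARB 2 on the other. The ARB differences from control, 0.43 ± 0.55 and 0.15 ± 0.54, were -0.08 and -0.41 with quantile normalization.

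Counted together, the member probe sets tested leaned lower without passing the test. Against control under RAS blockade, 0 of the 11 probe sets tested had a limma adjusted p under 0.05, as over all probe sets (0%), and the lowest adjusted p of any probe set was 0.0779. At an unadjusted p under 0.05 there were 2, Alas2 and Alas1 J03190_at, both lower (18.2%, against 5.07% of all probe sets and 2.02% lower). The treated arrays lay wholly below both controls for 2, Alas2 and Hmox1 rc_AI179610_at (18.2%, against 3.72% of all), and above both for 0 (4.63% of all). Below 0 lay 10 of the 11 (90.9%, against 40.4% of all), Hmox2 J05405mRNA_s_at being the other. The median difference was -0.76, against 0.13 over all probe sets tested. Alas1, Slc4a1, Hmox1 and Hmox2 each enter these counts with 2 probe sets. The globin and Slc4a1 probe sets not counted did not lean lower for RAS blockade. X56325mRNA_s_at lay at 2.22 with control arrays far apart, rc_AI179576_s_at at 0.24, Slc4a1 rc_AA875035_at at 0.71 and Hba-a3 at -0.01. Centring each array on its median moved the median of all to -0.20 and the share of all below 0 to 64.5%. It shifts the difference of every probe set by the same amount. The gap between the members' median and that of all (-0.89) therefore could not change. With quantile normalization that gap was -0.81 and with cyclic loess -0.79.

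Under ACEI, 0 had an adjusted p under 0.05 (0% of all), and 1, Alas2, had an unadjusted p under 0.05 (9.09%, against 2.59% of all and 1.39% lower). Both ACEI arrays lay below both controls for 3 members, Alas2, Slc4a1 J04793_at and Hmox1 rc_AI179610_at (27.3%, against 11.9% of all). They lay above for 2, Alas1 J03190_at and Hmox2 J05405mRNA_s_at (11.6% of all). Below 0 lay 8 (72.7%, against 53.1% of all), and the median was -0.50, against -0.04 over all. Under ARB, 0 passed after adjustment (0% of all) and 2 had an unadjusted p under 0.05, Alas1 J03190_at and Alas2 (18.2%, against 17.3% of all), a share near the background; both were lower, as were 4.69% of all. Both ARB arrays lay below both controls for 4, those 2 with Hbb-b1 and Hmox1 rc_AI179610_at (36.4%, against 16.8% of all), and above for 0 (33.4% of all). Below 0 lay 8 (72.7%, against 41.9% of all), and the median was -0.89, against 0.18 over all. With median centring 67.6% of all lay below 0 under ARB. The ACEI and ARB comparisons share the control arrays.

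ARB against ACEI takes its difference from the 4 treated arrays, but the spread in the fit was pooled over all 6. There 0 passed after adjustment (0% of all). In a limma fit of only those 4 arrays 305 of the 5244 probe sets did. Among them were Alas1 J03190_at (adjusted p = 0.0239) and Hmox1 J02722cds_at (adjusted p = 0.0303), both lower under ARB. Both read under the median foreign-sequence signal on both ARB arrays. The other probe set of each gene did not show this, with differences of -0.52 for Alas1 J03190_g_at and -0.16 for Hmox1 rc_AI179610_at. With all 6 arrays 3 had an unadjusted p under 0.05 (27.3%, against 22.3% of all), again near the background. These were Alas1 J03190_at and Alas2, lower under ARB (6.71% of all were lower), and Slc4a1 J04793_at, higher under ARB (15.6% of all were higher). The ARB arrays lay below both ACEI arrays for 3 members (25.3% of all) and above for 2, Hbb and Slc4a1 J04793_at (37.1% of all). Below 0 lay 6 (54.5%, against 43.5% of all), and the median was -0.16, against 0.15 over all.

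**Figure D4:**
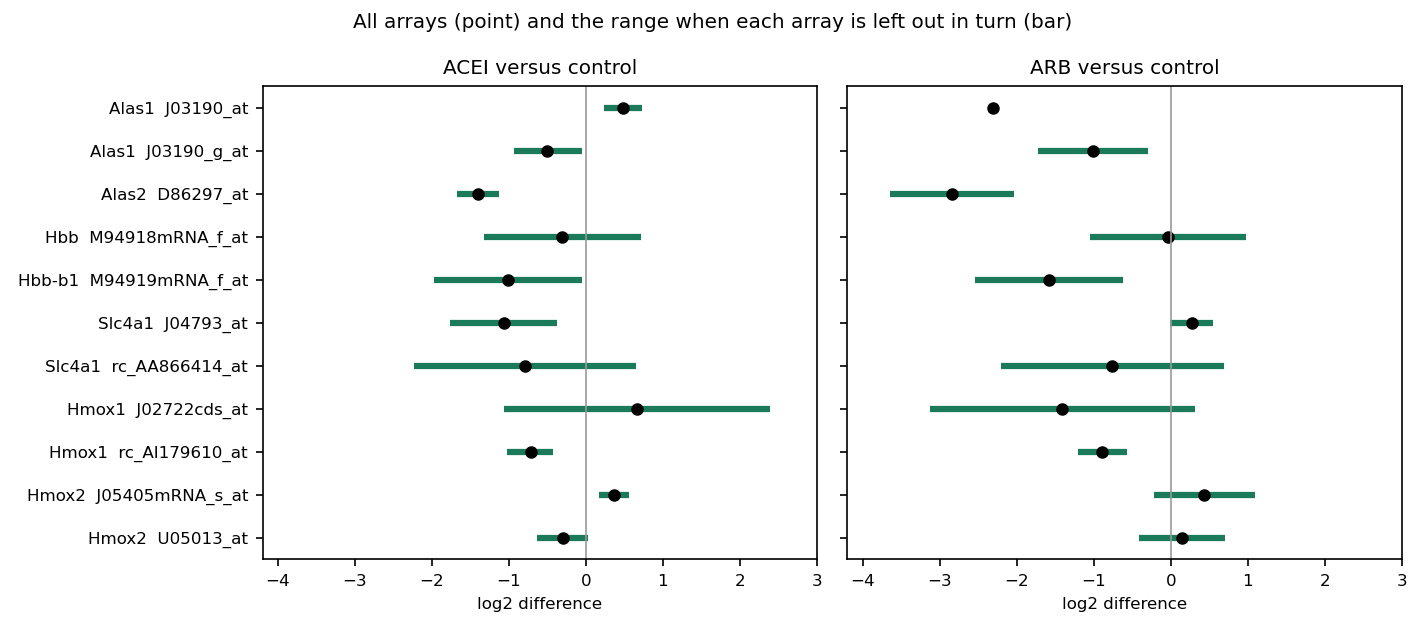
Log2 differences of ACEI and of ARB from control for the 11 globin and haem metabolism probe sets tested, as a point with all 6 arrays and a bar for the range when each array is left out in turn. The Alas2 bars run from -1.67 to -1.13 for ACEI and from -3.65 to -2.04 for ARB, while those of Hbb cross 0.

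The other haem synthesis genes lay near 0 for RAS blockade, apart from Alad. Of 16 listed genes of haem synthesis and its mitochondrial transport, 4 were named on the array and tested, and 0 had an unadjusted p under 0.05 in limma in any comparison. Alad, which joins ALA molecules, read 659 and 555 on the controls, 324 and 786 under ACEI, and 843 and 80.6 under ARB (RAS blockade -0.50). Urod, a later enzyme of the chain, read 980 to 1268 on all 6 arrays and differed by 0.00. The oxidase Ppox differed by 0.07, with its other probe set below 0, and the transporter Abcb6 by 0.24. The list's median was 0.04, against 0.13 over all probe sets.

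Of 26 listed genes of haem breakdown and of haem and iron handling, 12 were tested, 5 below and 7 above 0, with a median of 0.08. Hfe, a regulator of iron uptake, read 933 and 846 on the controls, 3097 and 1826 under ACEI, and 1250 and 2007 under ARB. All treated arrays were above the controls (RAS blockade 1.06 ± 0.43, unadjusted p = 0.0375, limma adjusted p = 0.863). The transferrin receptor Tfrc differed by 1.11 and the iron regulatory protein gene Ireb2 by 1.22, but their control arrays were far apart, at 1788 and 101 for Tfrc and at 403 and 34.6 for Ireb2. Cp, the copper oxidase that loads iron onto transferrin, differed by -1.09, again with control arrays far apart (389 and 1755), and its other 2 probe sets lay above 0. Hpx, the haem scavenger haemopexin, was chosen after its values were seen: it read 180 and 212 on the controls, 216 and 124 under ACEI, and 442 and 861 under ARB (ARB 1.32 ± 0.50, adjusted p = 0.256). Its ARB 1 reading lay under the highest foreign-sequence signal of that array (545.3), and its ARB 2 reading above that of its own (522.9).

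Of 23 red cell and erythroid genes other than the members, 9 were named and 6 tested, 4 below and 2 above 0 for RAS blockade (median -0.37), with 0 at an unadjusted p under 0.05 there. Epb41, the protein 4.1 gene of the membrane skeleton, read 752 and 1168 on the controls, 478 and 170 under ACEI, and 677 and 1381 under ARB. Gata1, the erythroid transcription factor, read 368 and 406, then 161 and 98.3, then 381 and 441. On these probe sets both were thus low on the ACEI arrays and near the controls on the ARB arrays. That is the same order as Slc4a1 J04793_at and not that of Alas2. Epb41 had another probe set, whose RAS blockade difference was -1.54, against -0.69 for the one shown, so its order rests on the probe set used. ARB lay above ACEI by 1.47 for Epb41 and 1.20 for Gata1 (unadjusted p = 0.0332 and 0.0266 in limma). For 5 of the 6 tested genes both ARB arrays lay above both ACEI arrays, against 37.1% of all probe sets, and the median was 0.97. The Gata1 readings on ARB 1 and 2 (381 and 441) lay under the highest foreign-sequence signal of their arrays (545.3 and 522.9). The part of the higher background of the ARB arrays in these differences was not tested. Aqp1, the water channel of red cells, was the tested gene that went the other way. It read 2773 and 1101 on the controls, 2791 and 1380 under ACEI, and 851 and 744 under ARB. Both ARB arrays thus lay below both controls (-1.06) and below both ACEI arrays (-1.22), as for Alas2, while its ACEI arrays overlapped the controls. Under RAS blockade Aqp1 differed by -0.45, and Slc14a1, the urea transporter, by 0.30.

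Of 28 stress genes that share inducers with Hmox1, 15 were named and 14 tested, 10 below and 4 above 0 (median -0.21), with 0 at an unadjusted p under 0.05 for RAS blockade in limma. The named ones were Gsr, which regenerates glutathione (0.73), the transcription factors Nfe2l2 (-0.60) and Atf3 (-0.58), and the peroxiredoxin Prdx1 (-0.44). Of 3 other globins, Mb, Ngb and Cygb, 0 were named on the array.

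**Figure D5:**
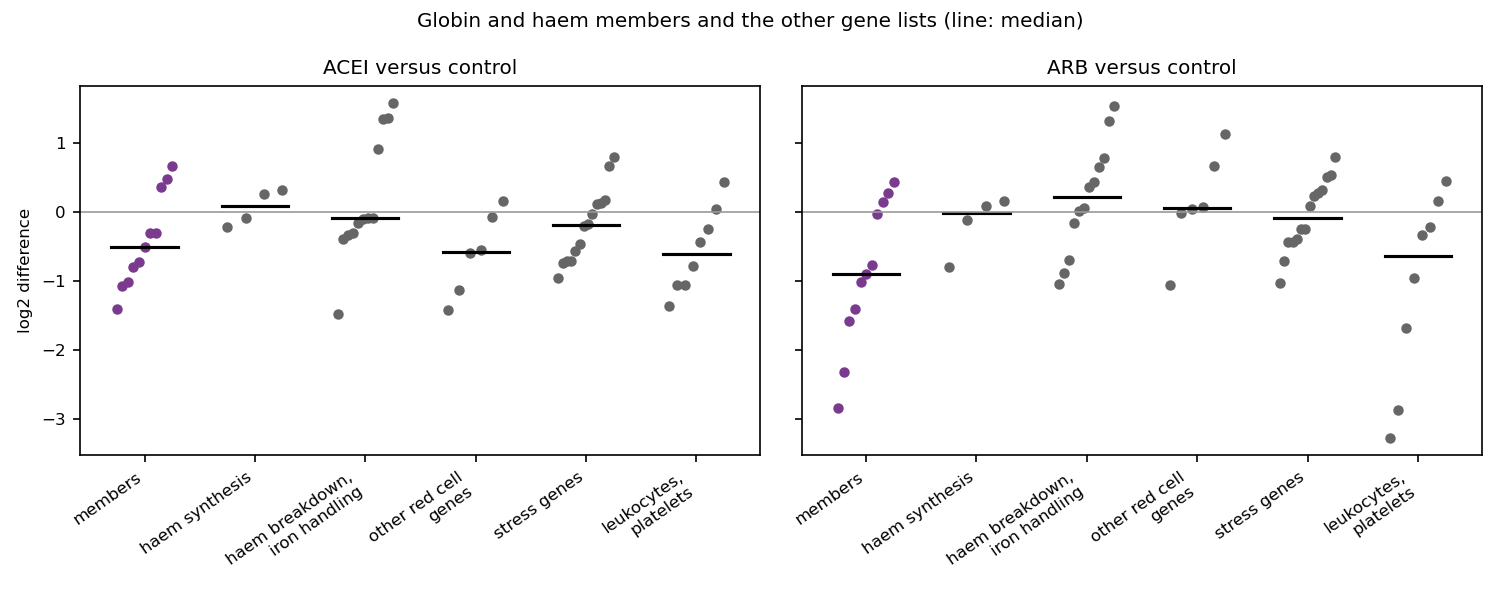
Log2 differences of ACEI (left) and ARB (right) from control for the globin and haem probe sets tested (purple, 1 point per probe set) and for other gene lists (grey, 1 point per tested gene), with a line at each median. The member medians are -0.50 and -0.89, those of the haem synthesis list 0.09 and -0.01, and those of the other red cell genes -0.58 and 0.06.

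Markers of some other cell types, though not of all, differed between the groups. Of 10 leukocyte and platelet markers named on the array 8 were tested, 7 of them below 0 for RAS blockade (median -0.57), and their summed intensity was 30330 and 25423 on the controls, 14085 and 23170 under ACEI, and 9590 and 9746 under ARB. S100a8, a neutrophil calcium-binding protein gene, read 2686 and 2679, then 962 and 1586, then 396 and 79.6, the order of Alas2. Its ARB 1 reading lay under the highest foreign-sequence signal of that array (545.3), and its ARB 2 reading under the median one (86.6). Not all markers of that list had the order of Alas2. For ARB against ACEI 5 of the 8 were below 0 and 3 above, Ptprc (1.23), Pf4 (0.71) and Itga2b (0.42). Ptprc read 525 and 618, then 366 and 234, then 911 and 719. All 7 tested of the 10 neuron markers named were above 0 for RAS blockade (median 1.02), with sums of 2147 and 3446, then 5228 and 5152, then 6293 and 7833. Of the 13 endothelial markers tested 5 were below and 8 above 0, and sums ran from 71070 to 152543, the highest on control 2. The summed red cell list was 12454 and 34528 on the controls, 16298 and 11516 under ACEI, and 20563 and 18683 under ARB, which overlap. Most of that sum on every array was 1 gene, Car2. It read 7309 and 30358 on the controls, 11375 and 9118 under ACEI, and 15770 and 13703 under ARB. The sum therefore mainly follows Car2 and not the list as a whole. Pericyte and smooth muscle markers, 7 of 7 named tested, had 5 below 0 (median -0.44), with sums of 29929 and 36005 on the controls and 13878 to 19771 on the treated arrays. Among them Acta2, the smooth muscle actin gene, was chosen after its values were seen: it read 19511 and 23120 on the controls and 7200 to 9605 on the treated arrays (RAS blockade -1.31 ± 0.39, unadjusted p = 0.00905, limma adjusted p = 0.863), all below the controls as for Alas2, while its other probe sets lay near 0. Acta2 made up most of both control sums of that list and was its brightest gene on every array, so the sums mainly follow Acta2. It was among the 4 genes of that list with the largest RAS blockade differences. The others were Tagln (-1.04), Cnn1 (-0.66) and Anpep (0.91), the last with the opposite sign. Astrocyte marker sums were 25160 and 28204 on the controls, 37592 and 48916 under ACEI, and 12342 and 12961 under ARB. No listed marker read 0 on any array. All of these sums add intensities, so the brightest genes of a list weigh most. The part of other cell types, of background or of RNA quality in the Alas2, Hmox1 and globin differences was not tested.

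The genes whose log2 values most resembled those of Alas2 over the 6 arrays were S100a8 (Pearson r = 0.981), Dnajb1 (0.970), Sult1a1 (0.969), Eif4ebp1 (0.967) and Hagh (0.960). The S100a8 reading on ARB 2 (79.6) lay under the median foreign-sequence signal of that array (86.6). For Hmox1 rc_AI179610_at they were Ptpn6 (0.921), Slc22a7 (0.920), Cxcl10 (0.901), Hnrnpa3 (0.894) and Dnajb1 (0.893). For Hbb they were Cd24 (0.990), Slco1a4 (0.980), Atp5f1a (0.979), Rab28 (0.977) and Cdk17 (0.975). Among the members, Alas2 correlated at 0.89 with Hmox1 rc_AI179610_at, at 0.68 with Hbb-b1 and at 0.03 with Hbb. The coefficients describe 6 arrays that share groups, run days and scaling, and were picked as the highest of all named probe sets tested.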

How the data were processed

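The deposited value table held 1 intensity per probe set of the Affymetrix rat array and sample. Trimmed by 2% at either end, the array means lay between 997.7 and 1002.2, as after scaling to a common level. Software, background correction and the origin of the scale were not given in the sources used here, and there were no detection calls. Run days, chip lots and fluidics settings were read from the array run headers. Symbols came from the array's annotation table (7018 probe sets with 1 symbol, 308 with several, 1473 with none), checked against RefSeq gene identifiers (0 symbols updated, 8 of 8 member genes matched).

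The 59 control probe sets were removed. Log2 was taken of intensity plus 90, the median above 0 (358.3) divided by 4. Probe sets in the lowest 40% by mean log2 value (under 222.6 as an intensity) were not tested, which kept 5244. limma 3.58.1 (R 4.3.3) was fitted to all 6 arrays with 1 mean per group, giving 5.49 prior and 3 residual degrees of freedom. Tests were two-sided, with Benjamini-Hochberg adjusted p-values at 0.05. The 4 contrasts were RAS blockade (mean of ACEI and ARB), ACEI and ARB against control, and ARB against ACEI. The fit was tested on simulated data. Python 3.11.15, pandas 2.3.3 and matplotlib 3.10.9 made tables and figures.

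The members, gene lists and alternatives were chosen with earlier results of these data known. Named were all members, up to 4 tested genes per list with the largest RAS blockade difference (1 probe set per gene, the brightest) and the 5 probe sets most like Alas2, Hmox1 and beta globin. The alternatives changed the offset, filter, normalization, blocks, variance and arrays used. Only 6 arrays limit the precision.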

Additional observations from a re-analysis of the deposited data

Results flagged for a closer look

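On Alas1 J03190_at both ACEI arrays (786 and 1148) lay above the controls (634 and 678) and both ARB arrays (61.9 and 59.8) below them. The ACEI difference from control was small against its error (0.48 ± 0.45, limma adjusted p = 0.992). Both ARB readings were under the median foreign-sequence signal of their arrays. The ARB minus ACEI difference was -2.79, with a limma adjusted p of 0.121. The companion probe set J03190_g_at did not show this, with a difference of -0.52.

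Slc4a1 rc_AA875035_at had the reverse order, with both ACEI arrays (36.0 and 55.1) below and both ARB arrays (377 and 736) above the controls (96.4 and 78.6). It lay under the filter on low levels. In a limma fit without that filter the ARB minus ACEI difference was 2.20, with an adjusted p of 0.0964. With 2 arrays per group, no search for single outlying arrays was possible.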

How the results depend on the processing

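Of 765 values of 44 member differences under the alternatives, 699 kept their direction and their side of the threshold, 8 crossed it and 58 changed sign. These counts overstate stability, since some alternatives cannot change a difference, only its p. They are the filters, the replicate block, the unmoderated variance, only the groups compared, and leaving out an array of a group not compared. The run day block likewise cannot change the ACEI difference from control, since each run day holds a control and an ACEI array. Alas2, Hbb-b1 against control and Hmox1 rc_AI179610_at against control did not change sign in any alternative run. Fitting RAS blockade to only the groups compared was not possible, since it needs all groups. The limma calls over all probe sets, 0 in each comparison, became 3, 3, 4 and 4 (RAS blockade, ACEI, ARB, ARB against ACEI) with the offset at the median. They became 1 for RAS blockade with quantile normalization and 1 with cyclic loess, and 3 each for RAS blockade and ARB with median centring. With only the groups compared, ARB against ACEI gave 305. Leaving out 1 array gave 0 to 60, 0 to 261, 0 to 46 and 0 to 305 calls. The 8 crossings were Alas1 J03190_at (adjusted p = 0.0239) and Hmox1 J02722cds_at (0.0303) in ARB against ACEI with only those groups or without either control array, and Hmox1 J02722cds_at for ACEI without control 1 (2.39, 0.0365) and for ARB without control 2 (-3.13, 0.0453). For ARB against ACEI, leaving out a control array gave the same values as only the groups compared, so the 3 crossings of each probe set there are 1 result. A fit without a control array assumes that the lone control varies like the other groups. The replicate numbers share only a number (correlations of deviations 0.0453, -0.0153 and -0.00374), and the replicate block gave 3, 2, 4 and 1 calls. The median member difference for RAS blockade was -0.45 with the offset at the median, -1.08 with median centring and -0.44 with the run day block, and -0.75 to -0.35 without 1 array. For ACEI it was -0.63 to -0.05 without 1 array, for ARB -1.51 with median centring and -1.20 to -0.57 without 1 array, and for ARB against ACEI -0.49 with quantile normalization, -0.75 with median centring and -0.59 to -0.08 without 1 array. Median centring moved the median of all probe sets for RAS blockade from 0.13 to -0.20. The gap between the members' median and that of all was -0.89 in both fits, which a shift common to all probe sets cannot change. The gap was -0.81 with quantile normalization and -0.79 with cyclic loess. The share of all probe sets below 0 went from 40.4% to 64.5% with median centring, and to 52.5% with quantile normalization. Sign changes under quantile normalization were Hbb 0.06 (RAS blockade), 0.49 (ACEI) and -0.86 (ARB against ACEI), Slc4a1 rc_AA866414_at -0.49 (ARB against ACEI), Hmox2 J05405mRNA_s_at -0.08 (ARB) and -0.33 (ARB against ACEI), and Hmox2 U05013_at -0.41 and -0.10. Under cyclic loess they were Hbb 0.25, 0.04 and 0.46 (RAS blockade, ACEI, ARB), rc_AA866414_at -0.48, J05405mRNA_s_at -0.33, and U05013_at -0.35 (ARB) and -0.04 (ARB against ACEI). Under median centring they were Hbb -0.32, rc_AA866414_at -0.56, Slc4a1 J04793_at -0.35 (ARB), J05405mRNA_s_at -0.19 (ARB) and -0.52, and U05013_at -0.48 (ARB) and -0.14. With no offset rc_AA866414_at was -0.08 (ARB against ACEI). With the run day block Hmox1 J02722cds_at was 0.04 (RAS blockade), rc_AA866414_at 0.04 (ARB) and Hbb -0.27 (ARB against ACEI). On the later day alone J02722cds_at was 1.38 (RAS blockade) and 0.31 (ARB), rc_AA866414_at 0.59, 0.50 and 0.69, and U05013_at -0.18 (ARB). Without 1 array, RAS blockade ran from -1.19 to 0.85 for Hbb, -2.23 to 0.67 for rc_AA866414_at, -2.10 to 1.35 for J02722cds_at and -0.40 to 0.25 for U05013_at. ACEI ran from -1.32 to 0.71, -2.24 to 0.65, -1.06 to 2.39 and -0.63 to 0.03 for the same probe sets, and ARB from -1.05 to 0.98, -2.21 to 0.69, -3.13 to 0.31 and -0.41 to 0.71. ARB also ran from -0.01 to 0.55 for J04793_at and -0.22 to 1.09 for J05405mRNA_s_at. ARB against ACEI ran from -0.94 to 1.01 for rc_AA866414_at, -0.11 to 1.01 for U05013_at, -0.59 to 0.73 for J05405mRNA_s_at, -1.24 to 0.20 for Alas1 J03190_g_at, -1.24 to 0.10 for Hbb-b1 and -0.48 to 0.15 for Hmox1 rc_AI179610_at. The cause of these changes was not tested.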
